A study of Drosophila melanogaster with 4 samples.

Results

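The subunits described here are 7 nuclear-encoded proteins of the mitochondrial inner membrane complexes, whose transcripts were measured in fly heads (Drosophila melanogaster) after feeding with sodium valproate (NaVP). Valproate is used against epilepsy and bipolar disorder and blocks histone deacetylases. The 7 genes are ATPsynB, ATPsynC, ATPsynE and ATPsynG of ATP synthase (complex V), SdhB and SdhD of succinate dehydrogenase (complex II) and Cyt-c1 of the cytochrome bc1 complex (complex III). They are a given list of 7 genes, matched to array clones of 1 gene symbol. The list does not hold every subunit measured, and the others are given further on. The array carried 9 of their clones among 13824, of which 7 clones, 1 per gene, had a value on at least 3 of 4 arrays, and 2 clones, second ones of ATPsynG and SdhD, had none. All 4 arrays gave a value for 6 of the 7 measured clones, and SdhD had values on arrays 1, 3 and 4. Over the whole array, 1030 clones had values on at least 3 arrays and 453 on all 4.

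The treated flies were unmated Oregon-R wild-type males, 10 to 11 days old when moved at 30 per vial to food with 0.33 mg/ml NaVP for 3 days, and the controls were such males moved to normal food for the same time. Total RNA came from pools of frozen heads, and each of 4 two-colour cDNA arrays set a treated pool against a control pool, which counted as 1 biological replicate. On arrays 1 and 2 the NaVP sample was labelled with Cy5; on arrays 3 and 4, the swap arrays, it was labelled with Cy3. In RNA from whole heads, fewer cells of a type and less RNA per cell cannot be told apart.

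ATP synthase makes most of a cell's ATP: protons flowing through its membrane part turn a ring, and the turning drives the catalytic head. Complex II oxidises succinate in the TCA cycle and passes the electrons to ubiquinone, and complex III passes electrons from ubiquinol to cytochrome c and pumps protons. Brain and photoreceptors use much of their ATP for ion transport and depend strongly on this chain.

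The table holds a log ratio for each listed spot. Its base and the dye on top are not stated, and base 2 was assumed, so that every fold depends on it. If the ratios are Cy5 over Cy3, the signs of arrays 3 and 4 must be turned to read as NaVP over normal food. The labels give Cy5 as the first channel throughout, but this does not settle which reading holds. If the authors had already turned them, the signs stand as deposited. Both readings take arrays 1 and 2 as NaVP over normal food, and each result is given under both. Directions are those of NaVP heads relative to control heads under the reading named, and all would be exchanged if the ratios ran the opposite way. The medians of the 4 arrays lay far from 0, at 1.01, 1.05, 0.54 and 0.24 (log2). Each array was therefore centred on its median, and every value below is a centred log2 ratio, signs as deposited unless a reading is named. Between 567 and 1021 of the 1030 tested clones had a value on a given array.

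None of the 7 genes passed the threshold in NaVP heads against control heads (limma, Benjamini-Hochberg adjusted over 1030 clones, 0.05). The count was 0 of 7 with the swap arrays turned, where 0.0971% of all tested clones passed, and 0 of 7 with the swap arrays as deposited, where 0.777% did. At an unadjusted limma p under 0.05 the counts were also 0 of 7 in each reading, against 6.89% and 14.1% of all tested clones. The signs of the ATP synthase genes differed between arrays. The 4 ATP synthase genes lay above the array median on arrays 1 and 2, all 4 lay below it on array 3, and 3 of the 4 lay above it on array 4. Arrays 3 and 4 have the same dye orientation, so no reading of the dye swap gives these genes 1 sign throughout, except ATPsynC. Of all tested clones, 57.07%, 55.38%, 58.05% and 57.0% lay above 0 on arrays 1 to 4. SdhD and Cyt-c1 had other signs, given below.

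**Figure D1:**
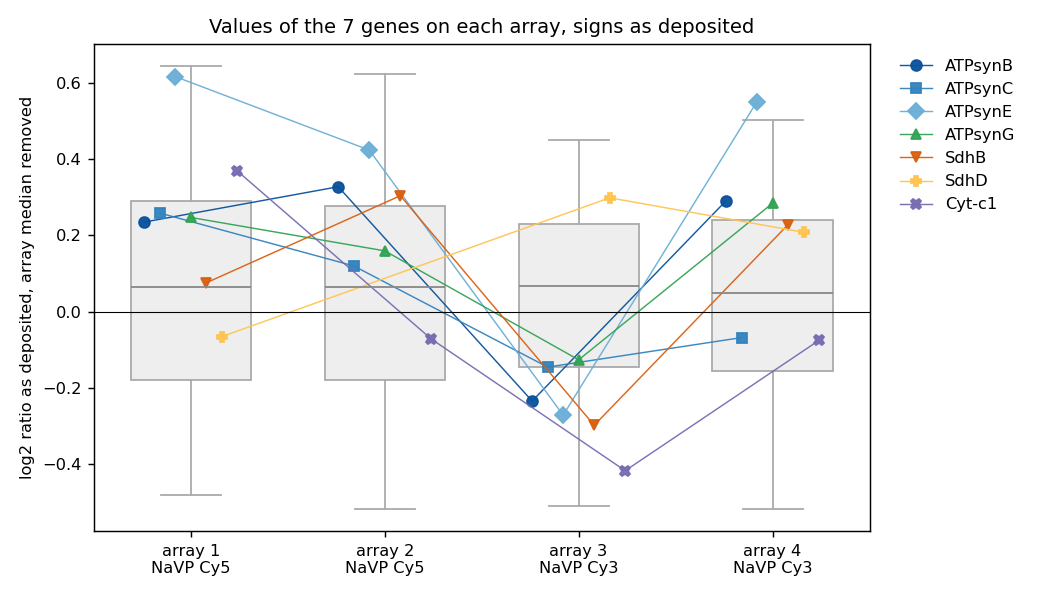
Centred log2 ratios, signs as deposited (vertical axis), of the 7 genes on arrays 1 to 4 (horizontal axis, with the dye of the NaVP sample). Grey boxes show the quartiles and median of all tested clones on that array, whiskers run from the 5th to the 95th percentile, and lines only join the values of a gene. On array 3, 6 of the 7 genes lie below 0, and the highest is SdhD at 0.30.

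ATPsynE (NCBI gene 41745) encodes subunit e, a small protein of the membrane part that in yeast helps ATP synthase form dimers. Its values were 0.62, 0.42, -0.27 and 0.55 on arrays 1 to 4. They were high among all tested clones on arrays 1, 2 and 4, above 94.0%, 85.9% and 95.9% of them, and low on array 3, above 14.2%. Both spots of the clone gave nearly the same ratio on each array, with differences between 0.012 and 0.074. The swing on array 3 was thus present in both spots, which read 0.262 and 0.274 before centring, against 0.832 and 0.758 on array 4.

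ATPsynB (NCBI gene 39143) encodes subunit b of the peripheral stalk, which holds the catalytic head still against the turning ring. Its values were 0.23, 0.33, -0.23 and 0.29 on arrays 1 to 4. Array 3 stood apart, and the other 3 values lay between 0.23 and 0.33. ATPsynG (NCBI gene 46069), which encodes subunit g, another small membrane protein tied to dimer formation in yeast, had 0.25, 0.16, -0.13 and 0.28. Its signs were those of ATPsynB and ATPsynE on each array.

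ATPsynC (NCBI gene 43693) encodes subunit c, the protein of the turning proton-driven ring. Its values were 0.26, 0.12, -0.15 and -0.07 on arrays 1 to 4, so that arrays of the same dye orientation shared a sign. With the swap arrays turned it therefore lay above 0 on all 4 arrays, as did 10.6% of the 453 clones on 4 arrays. It was the only one of the 6 genes on 4 arrays that did, and it had the smallest spread of them in that reading, with an SD of 0.080. As deposited, 0 of these 6 lay above 0 on all 4 arrays, against 20.5% of the 453 clones.

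SdhB (NCBI gene 35590) encodes the iron-sulfur subunit of complex II, which carries electrons to the ubiquinone site. Its values were 0.08, 0.30, -0.30 and 0.23 on arrays 1 to 4, the same signs as ATPsynB, ATPsynE and ATPsynG. The value on array 1 is the least certain, because its spots differed by 0.616, the widest gap among the 27 spot pairs of the 7 genes. SdhD (NCBI gene 42808) encodes a membrane anchor of the same complex. It had -0.07, 0.30 and 0.21 on arrays 1, 3 and 4 and was not listed on array 2. These signs are opposite to those of SdhB on arrays 1 and 3 and alike on array 4. The spots of SdhD on array 1 also differed by more than 0.5, by 0.544. Before centring the array 1 spots read 1.393 and 0.777 for SdhB and 1.216 and 0.672 for SdhD. For each gene they lay on either side of the array median of 1.01. The sign of neither gene on array 1 was therefore shared by both of its spots.

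Cyt-c1 (NCBI gene 38612) encodes cytochrome c1, the haem protein of complex III that hands electrons to cytochrome c. Its values were 0.37, -0.07, -0.42 and -0.08 on arrays 1 to 4. The value on array 3 was the lowest of the 7 genes on any array, above 7.52% of the tested clones there, and array 1 alone lay above 0. The spots of a pair differed by a median of 0.124 over the 27 pairs of the 7 genes, and 25 pairs differed by less than 0.3.

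Array 3 held the lowest value of all 6 genes measured on 4 arrays. That array was the lowest for 38.2% of the 453 clones on 4 arrays, and 45.3% of them lay below 0 on it. Both unswapped arrays were above 0 for 5 of the 6, all but Cyt-c1, and for 47.9% of the 453 clones. In all, 4 of the 6, ATPsynB, ATPsynE, ATPsynG and SdhB, lay above 0 on arrays 1, 2 and 4 and below 0 on array 3, a pattern of 12.6% of the 453 clones. The pattern was seen in the values of these genes before it was counted, so the shares describe these arrays and test nothing. The median of the 7 genes was 0.25 on array 1, 0.23 on array 2 (6 genes), -0.23 on array 3 and 0.23 on array 4, against 0.065, 0.065, 0.067 and 0.048 over all tested clones.

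The gap between the swap arrays was widest for ATPsynE. Array 4 minus array 3 was 0.82 for ATPsynE, above 99.4% of the 935 tested clones on both, and 0.53 for each of SdhB and ATPsynB, above 94.1% and 94.0%. It was 0.41 for ATPsynG and 0.34 for Cyt-c1, above 88.0% and 84.5%. For ATPsynC and SdhD it was 0.08 and -0.09, well within the SD of 0.35 over all 935 clones. Of those clones, 7.38% had a gap above 0.5. The gap takes up the low values on array 3 described above, so these shares also describe the arrays and test nothing. Between the unswapped arrays, array 1 minus array 2 ran from -0.23 for SdhB to 0.44 for Cyt-c1, between the 15.1 and 86.9 percentiles of 548 clones (SD 0.34). Across clones, which are not independent replicates, Pearson's r was 0.55 between arrays 1 and 2 and 0.39 between arrays 3 and 4. It was -0.14 between arrays 1 and 3 and 0.21 between arrays 1 and 4, 0.13 between arrays 2 and 3 and 0.34 between arrays 2 and 4. Spearman's rho was 0.55 between arrays 1 and 2 and lower, 0.28, between arrays 3 and 4. For the other pairs, in the order above, it was -0.16, 0.22, 0.0089 and 0.25. Turning the swap arrays reverses the sign of each correlation between an unswapped and a swap array. A dye effect shared by the arrays and signs already turned by the authors cannot be told apart in these values.

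**Figure D2:**
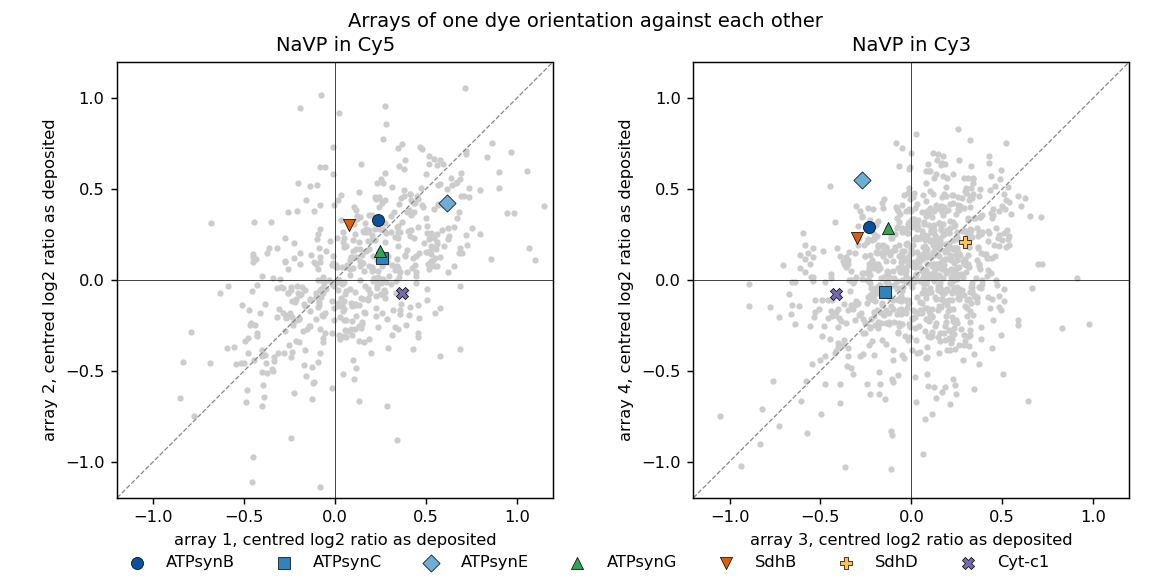
Centred log2 ratios, signs as deposited, of array 2 against array 1 (left, NaVP in Cy5) and of array 4 against array 3 (right, NaVP in Cy3); grey points are tested clones, coloured symbols the 7 genes, and the dashed line marks equal values. The axes end at 1.2 in either direction, which leaves out 4 of 548 clones on the left and 8 of 935 on the right. ATPsynE, ATPsynB, ATPsynG and SdhB lie above the dashed line on the right, in the quadrant below 0 on array 3 and above 0 on array 4.

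With the swap arrays turned, 6 of the 7 genes had a mean above 0, with a median of 0.13, against 47.6% of all 1030 clones above 0 and a median of -0.0094. Cyt-c1 had the highest mean, 0.20 ± 0.23 (SD, n = 4), a 1.15-fold ratio with a 95% interval from 0.932 to 1.41, at 3 of 4 arrays above 0 (limma adjusted p = 0.749). ATPsynE followed at 0.19 ± 0.51 (SD, n = 4; limma adjusted p = 0.845), where array 4 now stood at -0.55 against 0.62, 0.42 and 0.27 on the others. ATPsynC had 0.15 ± 0.080, ATPsynB 0.13 ± 0.28, SdhB 0.11 ± 0.25 and ATPsynG 0.062 ± 0.24 (SD, n = 4 for each; limma adjusted p from 0.796 to 0.952). Of the 6 means above 0, that of ATPsynC alone was larger than its SD over the arrays. SdhD was the one gene with a mean below 0, at -0.19 ± 0.12 (SD, n = 3; limma adjusted p = 0.796). It lay below 0 on all 3 arrays that measured it, as did 17.3% of the 463 clones listed on just those arrays. On array 1 the spots of SdhD lay on either side of the array median, so its sign there is uncertain.

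With the swap arrays as deposited, 6 of 7 genes again had a mean above 0, with a median of 0.14, against 60.0% of all clones and a median of 0.050. ATPsynE had the highest mean, 0.33 ± 0.41 (SD, n = 4), a 1.26-fold ratio with a 95% interval from 0.9996 to 1.58, and lay above 0 on 3 of 4 arrays. It ranked 77 of 1030 and did not pass (limma adjusted p = 0.354). ATPsynB had 0.15 ± 0.26, ATPsynG 0.14 ± 0.19, SdhB 0.077 ± 0.27 and ATPsynC 0.041 ± 0.18 (SD, n = 4 for each), and SdhD had 0.15 ± 0.19 (SD, n = 3). Cyt-c1 was the gene below 0 here, at -0.049 ± 0.32 (SD, n = 4). For these 6 genes the limma adjusted p lay between 0.63 and 0.926. SdhD and Cyt-c1 thus changed sign between the readings, and the 4 ATP synthase genes and SdhB did not.

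The arrays could not show changes of small size in these genes. The 95% intervals of the 7 means reached 0.27 to 0.40 to either side with the swap arrays turned and 0.27 to 0.33 as deposited, and every one held 0. Over both readings they spanned from 0.696-fold for SdhD to 1.58-fold for ATPsynE. An exact sign-flip test of a single gene cannot go below p = 0.125 with 4 arrays, or 0.25 with 3. With dye orientation fitted as a second coefficient, the members also gave 0 calls of 7 in each reading, where 3.11% (turned) and 5.73% (as deposited) of all clones passed. ATPsynE as deposited had the smallest value there (limma adjusted p = 0.0956). It was also the 1 member of 7 with an unadjusted limma p under 0.05 as deposited, where 20.7% of all clones had one, against 0 of 7 turned (15.5% of all clones). That fit leaned on a spread pooled over clones with 76.4 prior degrees of freedom. For SdhD, whose plain mean mixes treatment and dye, it gave -0.16 turned and 0.094 as deposited.

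Array 3 set much of the size of the means as deposited. Without it, ATPsynE had 0.53, ATPsynB 0.28, ATPsynG 0.23, SdhB 0.20, ATPsynC 0.10 and Cyt-c1 0.074, all above their means on all arrays, whereas SdhD dropped to 0.071, and none of the 7 passed (limma adjusted p at least 0.142). With the swap arrays turned, several arrays moved the means. Without array 4, ATPsynE had 0.44, ATPsynB 0.27, SdhB 0.23 and ATPsynG 0.18 (limma adjusted p from 0.588 to 0.623). Without array 1, ATPsynE had 0.048 and ATPsynG 0.00058, and without array 2 ATPsynB had 0.060 and SdhB 0.049 (limma adjusted p from 0.981 to 0.9995). In these fits 1 dye orientation rests on a single array.

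**Figure D3:**
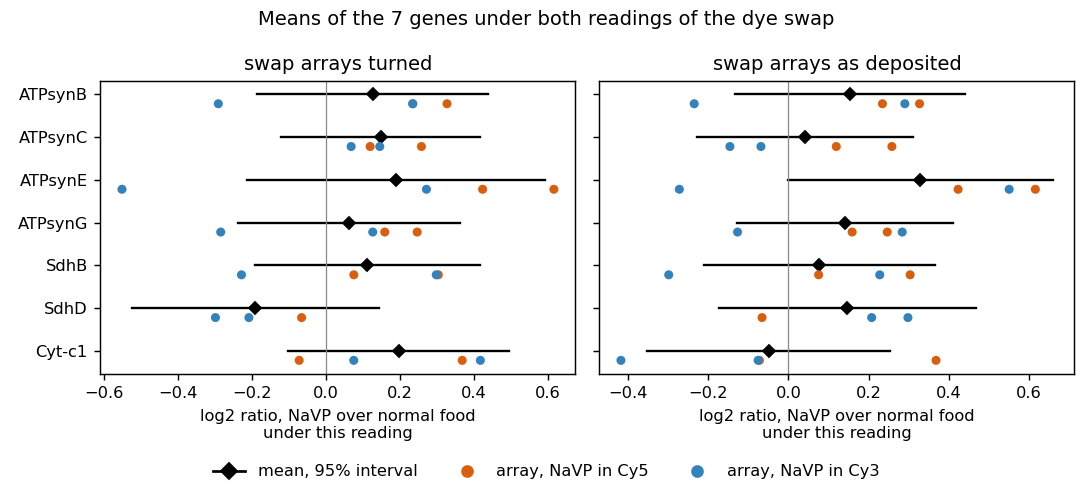
Mean log2 ratio of NaVP over normal food with its 95% limma interval (black diamonds and bars) for the 7 genes under each reading of the dye swap, with the single arrays below each bar (orange, NaVP in Cy5; blue, NaVP in Cy3). Every interval holds 0, the lower end for ATPsynE with the swap arrays as deposited at -0.00052.

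Few other subunits of these complexes could be read. Of 18 listed genes of ATP synthase, 10 were on the array and 5 had any value; beyond the 4 above this was ATPsynbeta, the catalytic subunit, with 0.35 on array 1 and 0.052 on array 4. Complex II had 5 of 6 listed genes on the array and no measured gene beyond SdhB and SdhD. Of complex III, 3 of 14 were on the array, and the measured gene beside Cyt-c1 was UQCR-6.4, a small subunit of that complex. UQCR-6.4 had 0.092, 0.095 and -0.065 on arrays 1, 3 and 4, close to the array medians and without the low value of Cyt-c1 on array 3. Of complex IV, cytochrome c oxidase, 6 of 19 were on the array and 1, levy, had values, -0.28 on each of arrays 3 and 4. None of the tested clones of these lists passed the threshold in either reading. ATPsynbeta and levy, on 2 arrays each, were not tested, so complex IV had no tested clone.

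Complex I, which feeds electrons from NADH into the chain, had 7 genes on at least 3 arrays and 0 called in each reading. With the dye coefficient ND-ASHI passed as higher with the swap arrays as deposited (0.47, limma adjusted p = 0.00737). Of the 6 of these genes with a value on array 3, 3 lay above and 3 below 0, with ND-39 at -0.66 and ND-ASHI at 0.49. Of all tested clones, 58.05% lay above 0 on that array. ND-39 had 0.39 and 0.37 on arrays 1 and 2, so its signs on arrays 1 to 3 were those of the ATP synthase genes. ND-39 was the highest mean of that list with the swap arrays turned (0.36 ± 0.26, SD, n = 4; limma adjusted p = 0.646) and ND-ASHI the lowest (-0.052 ± 0.55, SD, n = 4; limma adjusted p = 0.978). As deposited ND-ASHI was the highest (0.47 ± 0.093, SD, n = 4; limma adjusted p = 0.127) and ND-15 the lowest (-0.14 ± 0.13, SD, n = 4; limma adjusted p = 0.636). The mitochondrial phosphate carrier gene Mpcp2, whose product brings in the phosphate used by ATP synthase, had 0.36, 0.45 and 0.13 on arrays 1, 2 and 4, all above 0 like the ATP synthase genes other than ATPsynC on those arrays. It did not pass (limma adjusted p = 0.756 turned and 0.354 as deposited), and it was not listed on array 3. Of the TCA cycle list, Mdh1 had 0.37, 0.75, -0.21 and -0.08 on arrays 1 to 4, and CG5214 had 0.41, -0.19, 0.03 and 0.24. Mdh1 encodes the cytosolic malate dehydrogenase and not the mitochondrial enzyme of the cycle. Neither Mdh1 nor CG5214 passed in either reading (limma adjusted p from 0.592 to 0.994). Idh3b, a subunit of isocitrate dehydrogenase, was listed on arrays 1 and 2 alone, at -0.43 and -0.51, and was not tested.

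**Figure D4:**
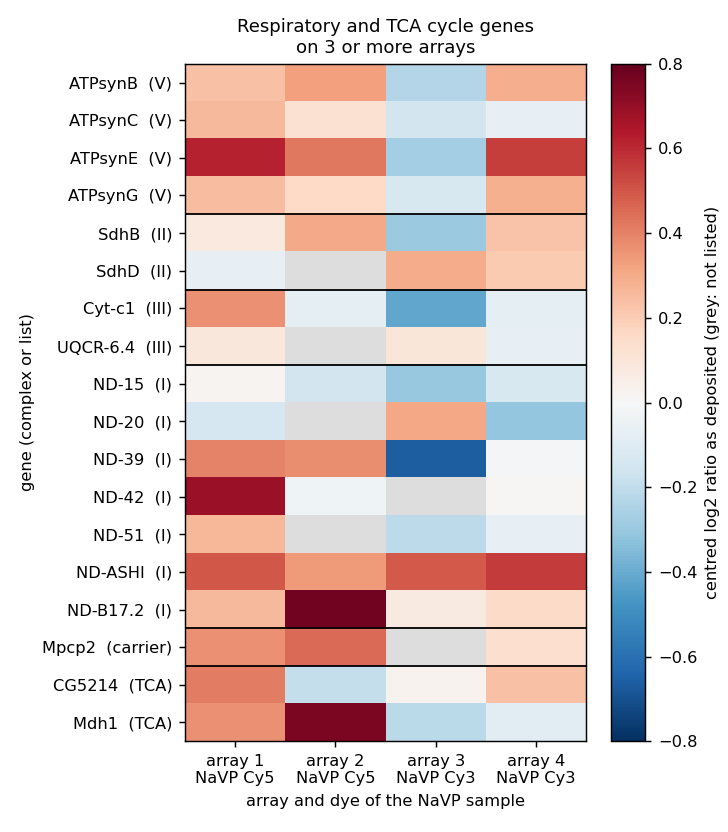
Centred log2 ratios, signs as deposited (colour, red above and blue below the array median, grey not listed), of each gene of the respiratory and TCA cycle lists on at least 3 arrays (rows, with its complex or list) on arrays 1 to 4 (columns, with the dye of the NaVP sample). Mdh1, in the TCA cycle list, is the cytosolic form. The 4 ATP synthase rows are red on arrays 1 and 2 and blue on array 3, as are the rows of SdhB, ND-39 and Mdh1. The 6 complex I rows with a value on array 3 hold 3 of each colour. Of all tested clones, 58.05% lay above 0 on that array.

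The genes whose profiles lay nearest to that of the 6 members on 4 arrays were taken from 218 other named clones on 4 arrays, by the root mean square difference over the 4 arrays. The mean profile of the 6 was 0.30, 0.21, -0.25 and 0.20. Nearest were Dp1, an RNA-binding protein gene, at a difference of 0.095, Traf-like at 0.109 and Hpd, an enzyme gene of tyrosine breakdown, at 0.117. All 3 lay above 0 on arrays 1, 2 and 4 and below 0 on array 3, which follows largely from choosing them by closeness to that profile. The median difference over the 218 clones was 0.33, and among the 6 themselves it ran from 0.081 for ATPsynB to 0.26 for ATPsynE. Each of the 6 is part of the mean profile, which lowers its own difference, so the 2 ranges are not alike.

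The head label was set against marker lists. The lists held 22 photoreceptor, 13 neuronal, 8 glial, 11 fat body and 19 muscle genes. Of these, 11, 4, 6, 10 and 10 were on the array. Values on at least 3 arrays were listed for 7 photoreceptor genes, among them trpl, inaD and Arr1. The same held for 3 neuronal, 1 glial, 3 fat body and 2 muscle genes. Of 9 gut genes, 2 were on the array and 0 had a value. A ratio file gives no levels, so that being listed is no measure of abundance. With the swap arrays turned 0 of these markers passed, and as deposited 1 did, Obp99b of the fat body list, lower at -0.79 (limma adjusted p = 0.0483). The direction of Obp99b changed with the reading, and its mean was 0.52 with the swap arrays turned. In the same list FASN1 had 0.18 as deposited, and the clones of apolpp had -0.40 and -0.095. The part of cell composition in the values of the 7 genes was not tested.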

How the data were processed

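The deposited table holds log ratios, read as log2 because values run below 0 and the scanner software uses that base. Per the series' design text, the authors quantified slides in GenePix Pro 6.0 and normalised ratios in Acuity 4.0. They filtered spots on intensity (minimum 100), saturation (under 3% of pixels), uniformity (regression R2 from 0.6) and signal over noise (from 3). Intensities are not part of the table, and the number of arrays limits the precision.

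Of 27648 spots, adjacent pairs were averaged into 13824 clones (all 7609 annotated pairs share their gene). Symbols came from an old probe annotation, updated by gene ID to RefSeq's Release 6 table. Each array was centred on its median, which removes any change shared by most clones. Clones on at least 3 arrays were tested with limma 3.58.1 in R 4.3.3 (lmFit, eBayes, intercept only, two-sided, Benjamini-Hochberg), for each reading of the swap. The code was tested on simulated data. The clones have no genome build in these sources, so coordinates are left out.

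The 7 genes, the gene lists and the tests were chosen with earlier results of these data known. Named genes are the members, all other measured genes of complexes II to V, and the highest and lowest of the other lists. Alternatives were a dye coefficient, no centring, other minimum numbers of arrays, discordant spots left out, robust eBayes and each array left out. A further 2 centrings were chosen after seeing the data.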

Additional observations from a re-analysis of the deposited data

Results flagged for a closer look

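ATPsynB had 1 array far from the others. Its array 3 value of -0.23, signs as deposited, stood apart from 0.23, 0.33 and 0.29, with a gap to the nearest value over the whole range of 0.835. With the swap arrays turned the value that stands apart is that of array 4, -0.29, with a ratio of 0.850, from the same 4 measurements. Both ratios pass Dixon's critical value for 4 samples at the 95% level. Such ratios were computed 12 times, for 6 genes under 2 readings, and chance passes about 1 in 20. The cause was not tested.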

How the results depend on the processing

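None of the 7 genes passed under any alternative that tested it, in either reading, apart from the fit with no centring. SdhD was not tested in the fit of clones on 4 arrays or with discordant spots left out, which held 6 members each. With no centring and signs as deposited 7 of 7 passed, with a median of 0.79: ATPsynB 0.86, ATPsynC 0.75, ATPsynE 1.04, ATPsynG 0.85, SdhB 0.79, SdhD 0.74 and Cyt-c1, whose direction turned, 0.66. That fit also called 745 of 1030 clones, since it tests the offset of the arrays. With no centring and the swap arrays turned, the median was 0.44 and 0 clones were called. Over all clones, the counts turned against as deposited were 32 and 59 with the dye coefficient, 0 and 24 for clones on at least 2 arrays, 0 and 1 for clones on 4 arrays, and 2 and 19 with 48 equal runs of spot numbers centred separately. They were 1 and 4 with discordant spots left out. Leaving out 1 array in turn gave 0 to 14 calls turned and 4 to 31 as deposited, always 0 of 7 members. Those fits took clones on at least 2 of the remaining arrays. Their counts, like those for other minimum numbers of arrays, are therefore not out of the 1030 clones of the main fit. The members' median with an array left out ran from 0.060 to 0.23 turned and from 0.093 to 0.20 as deposited. Small means changed direction in 5 other cases. ATPsynG went to -0.0037 turned and -0.012 as deposited with those runs centred. ATPsynC as deposited went to -0.020 when centred on the clones on at least 3 arrays. It ran from -0.031 (without array 1) to 0.10 with an array left out, and Cyt-c1 as deposited from -0.19 to 0.074 (without array 3). The other 152 values of single genes kept direction and call. Centring within printing blocks was not run, because neither spot numbers nor annotation give the blocks. No paired analysis was possible because each array already pairs a treated and a control pool in 1 ratio. The cause of these shifts was not tested. With 4 arrays and no intensities, changes smaller than the intervals given cannot be seen. The intervals are not adjusted for the number of clones, so a somewhat larger change could also fail the adjusted threshold.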
